A study of Mus musculus with 9 samples.

Results

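The 35 genes described here encode the enzymes and transporters of glycolysis, the oxygen-sensing proteins and a set of genes known to be induced when oxygen is low. Members were rows of the deposited count table whose transcripts belong to a gene on this list, taking the row with most counts per gene. All 35 were found among 38887 rows, and all 35 were among the 14363 rows with enough counts to be tested. RNA-seq was done on bone marrow-derived dendritic cells of the mouse, antigen-presenting cells grown from marrow in culture. There were 3 untreated libraries, 3 libraries of cells given lysophosphatidic acid (LPA) for 2 h and 3 for 6 h. LPA is a signalling phospholipid, and the series title places it in ovarian cancer. The labels give no strain, age, dose or vehicle, and do not say whether replicates were separate cultures, so every p-value here reflects variation among these libraries, which may be technical.

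Glycolysis splits glucose into pyruvate in the cytosol. Pyruvate then enters the mitochondrion through pyruvate dehydrogenase or is reduced to lactate and exported. When oxygen is low, the prolyl hydroxylases of the Egln family no longer mark HIF1α for degradation, and HIF1α with its partner ARNT binds a short DNA core in the promoters of many glycolytic genes. In dendritic cells, glycolysis is known to rise soon after activation through Toll-like receptors.

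That core reads ACGTG or GCGTG, and the promoters of 4 members that moved in different ways are shown so that it can be seen in place. Each line is the 250 bases before a RefSeq start (GRCm38.p6, + strand, 5′ to 3′), with cores on either strand in capitals. The regions are chr7:46845554-46845803 for Ldha (1 of 2 starts listed), chr3:104638414-104638663 for Slc16a1, chr19:53329163-53329412 for Mxi1 (1 of 3 starts listed) and chr2:71872974-71873223 for Pdk1 (1 of 2). The Slc16a1 and Pdk1 regions lie before their own gene in GENCODE M21, and those of Ldha and Mxi1 lie within it. Bases after the start were found whole near the beginning of a GENCODE transcript of the gene for Mxi1 and Pdk1, and not for Ldha and Slc16a1. At the Ldha start not shown they were found. A start a few bases before that of the transcript fails this match. The Slc16a1 region ends at base 104638663 and the gene starts at 104638668, so the match cannot decide whether GENCODE holds the Slc16a1 start. Overlap of the regions with exons was not tested.
Ldha: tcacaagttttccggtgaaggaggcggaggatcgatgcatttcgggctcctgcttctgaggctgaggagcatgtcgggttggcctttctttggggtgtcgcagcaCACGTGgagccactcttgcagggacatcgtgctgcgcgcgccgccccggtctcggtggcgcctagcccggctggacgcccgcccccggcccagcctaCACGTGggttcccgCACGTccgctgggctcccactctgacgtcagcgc
Slc16a1: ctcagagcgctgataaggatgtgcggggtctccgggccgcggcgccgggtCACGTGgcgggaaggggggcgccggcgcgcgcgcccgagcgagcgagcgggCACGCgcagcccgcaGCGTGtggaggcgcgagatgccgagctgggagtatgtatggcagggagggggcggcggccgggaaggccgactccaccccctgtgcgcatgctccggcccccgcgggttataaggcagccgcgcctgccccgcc
Mxi1: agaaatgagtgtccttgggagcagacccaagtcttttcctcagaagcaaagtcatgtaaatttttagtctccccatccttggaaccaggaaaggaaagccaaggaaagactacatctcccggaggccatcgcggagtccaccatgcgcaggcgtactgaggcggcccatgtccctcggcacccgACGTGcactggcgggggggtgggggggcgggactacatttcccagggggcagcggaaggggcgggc
Pdk1: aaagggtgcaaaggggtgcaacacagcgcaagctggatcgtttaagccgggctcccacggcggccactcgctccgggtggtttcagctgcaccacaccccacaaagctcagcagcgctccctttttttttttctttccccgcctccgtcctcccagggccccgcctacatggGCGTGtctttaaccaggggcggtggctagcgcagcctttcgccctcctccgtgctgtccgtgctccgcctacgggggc

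Ldha holds 3 cores in this stretch, Slc16a1 also 3, and Mxi1 and Pdk1 hold 1 each. At the starts not shown, 1 core lies before that of Ldha, 1 before the third start of Mxi1, and 0 before its first start and that of Pdk1. No start left out held more cores than the one shown for its gene. Both strands were searched, and the 2 overlapping cores of CACGTG were counted once. RefSeq promoters were listed for 32 members, and not for Ero1l, Bnip3l and Ndrg1. Over windows of 300 bases (250 before and 50 after the start), 29 of the 32 (90.6%) held a core in at least 1 promoter, against 12628 of 27025 genes (46.7%) in the whole table. The members without it were Gpi1, Tpi1 and Eno2. Counted by promoter, 38 of 49 promoters of members (77.6%) held a core, against 14380 of 32851 (43.8%) in the whole table. Member promoters were also richer in CpG dinucleotides, which both forms of the core contain, with a median of 21 per window against 7 over all promoters. The core was present in 9 of 9 members that rose at 2 h, in 5 of 6 that fell and in 15 of 17 that were not called. At 6 h it was present in 8 of 8, 10 of 11 and 11 of 13. A match is a description of the letters only.

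Library totals ran from 29628817 (6 h replicate 1) to 84596899 counts (2 h replicate 2). On the first principal component of all tested rows, 2 h replicate 2 lay at 9.74, and the other 2 h libraries at -4.67 and -12.4. Without that library, 10 members were higher and 6 lower at 2 h, the same counts as with it but not the same members. P4ha2 lost its call (edgeR adjusted p = 0.0648) and Pgk1 gained one (adjusted p = 0.0224). The dendritic cell markers Itgax and Cd74 stood at 1361 ± 35.7 and 3597 ± 337 CPM (counts scaled to a common library size, SD, n = 3) in untreated cells. Macrophage and monocyte markers (12 of 12 tested) summed to 19841 to 21213 CPM in untreated cells, 22122 to 23442 at 2 h and 21152 to 22434 at 6 h, mostly from Lyz2 (16407 ± 700 CPM untreated). Within that list 4 genes rose at 6 h, among them Cd14 (106 ± 10.6 to 1078 ± 33.1 CPM), and 5 fell (Adgre1, Fcgr1, C1qa, C1qb and C1qc). Dendritic cell markers (13 of 14 tested) summed to 7230 to 8321, 7682 to 8470 and 6766 to 7408 CPM. At 6 h 2 of them rose (Ccr7 and Clec9a) and 4 fell (Itgax, Dpp4, H2-Ab1 and Batf3). Neutrophil markers (7 of 11 tested) summed to 2038 to 2211, 1954 to 2063 and 1791 to 1902 CPM, nearly all from Mmp8, while the defining neutrophil gene Ly6g had at most 2 counts in a library. The part of these shifts in the results was not tested. In bulk RNA, fewer cells of a type and less RNA per cell cannot be told apart.

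The genes were well expressed: their median level was 102 CPM in comparison with 17.2 over all tested rows, 20 of them stood at 100 CPM or more, and 4 lay under 10. Together they held 1.08 to 1.12% of counts in untreated cells, 1.11 to 1.19% at 2 h and 1.04 to 1.07% at 6 h. After 2 h, 10 members rose (19.3% of all rows did), 6 fell (19.2% of all rows) and 19 were not called, so 45.7% were called, beside 38.5% of all rows. After 6 h, 10 rose (26.4% of all rows did), 11 fell (25.7% of all rows) and 14 were not called, or 60% called, beside 52.0% of all rows. These shares lie near the background. Changes were small: 4 members were called with at least a 1.5-fold change at each time (11.4%, against 10.3% of all rows at 2 h and 17.7% at 6 h). The median log2 fold change of the members was 0.041 at 2 h and -0.047 at 6 h, against -0.00099 and 0.0073 over all rows. Groups did not overlap for 17 members at 2 h (48.2% of all rows) and for 22 at 6 h (63.0% of all rows). The members did not move as a block, and the roles are taken in order below. Counts by role rest on 2 to 9 genes each, and the same shares of all rows stand beside them.

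**Figure D1:**
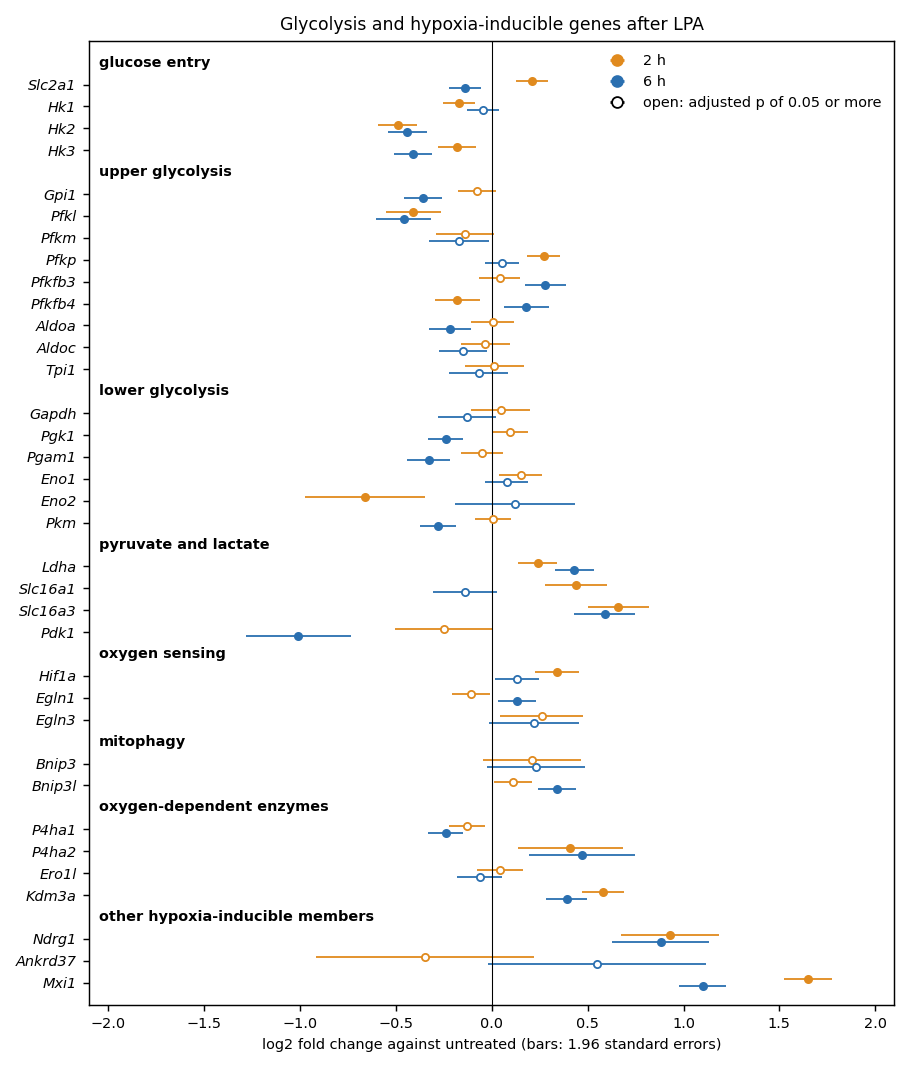
Log2 fold change of each of the 35 members against untreated cells at 2 h (orange) and 6 h (blue), grouped by role, with bars of 1.96 standard errors and open points for members not called. Mxi1 lies farthest right at both times (1.65 and 1.10) and Pdk1 farthest left at 6 h (-1.01).

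Of the 4 glucose entry genes, 3 fell at 2 h (Hk1, Hk2 and Hk3) and 1 rose (Slc2a1), and 3 fell at 6 h (Slc2a1, Hk2 and Hk3). Hk2, the hexokinase most often tied to inducible glycolysis, read 118, 121 and 120 CPM in untreated cells, 81.1, 85.2 and 88.9 at 2 h, and 87.2, 83.6 and 94.0 at 6 h. Every treated library lay below every untreated one. The log2 fold change was -0.49 ± 0.052 (SE) at 2 h (edgeR adjusted p = 1.42e-05) and -0.44 ± 0.052 at 6 h (adjusted p = 2.13e-05).

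Hk3, a hexokinase of myeloid cells, went from 435 ± 19.1 (SD, n = 3) to 383 ± 5.64 and 328 ± 17.4 CPM, falling further between the times (edgeR adjusted p = 0.00284). Its call at 2 h was lost without untreated replicate 2 (adjusted p = 0.0546). Hk1, bound to the outer mitochondrial membrane in most tissues, was lower at 2 h (-0.17 ± 0.042, adjusted p = 0.00601), and its 6 h difference was -0.047 (95% interval -0.13 to 0.036). Slc2a1, the glucose transporter GLUT1, moved up and then down: it read 228 to 241 CPM untreated, 263 to 283 at 2 h and 209 to 215 at 6 h, with no overlap between any groups. Its 6 h decrease of -0.14 ± 0.043 (adjusted p = 0.0166) was lost without untreated replicate 2 (adjusted p = 0.0589), untreated replicate 3 (0.0502) or 6 h replicate 1 (0.0524), with scaling by total counts alone (0.0529) and without the filter on low counts (0.052).

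Per kilobase of transcript, Hk3 made up 71.8 ± 0.642% of hexokinase RNA in untreated cells, 73.4 ± 0.52% at 2 h and 68.7 ± 1.39% at 6 h (SD, n = 3). Hk2 gave 11.5 ± 0.331%, 9.51 ± 0.484% and 10.8 ± 0.976%. The 3 hexokinases together fell from 188 ± 6.55 to 162 ± 1.43 and 148 ± 5.44 CPM per kilobase. No test was run on these shares and sums.

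Upper glycolysis moved in both directions, and its 3 phosphofructokinases, which carry out the committed step, differed among themselves. Pfkl, the liver-type subunit, read 103, 92.0 and 85.2 CPM untreated, 77.8, 66.8 and 66.5 at 2 h and 69.0, 68.2 and 66.9 at 6 h. All treated libraries lay below the untreated ones, at -0.41 ± 0.073 (edgeR adjusted p = 9.47e-04) and -0.46 ± 0.074 (adjusted p = 2.79e-04). Pfkp, the platelet-type subunit, rose at 2 h from 300 ± 6.95 to 361 ± 12.1 CPM (0.27 ± 0.045, adjusted p = 5.18e-04) and stood at 311 ± 11.2 CPM at 6 h, where it overlapped untreated cells. Pfkm, the muscle type, stood at 8.31 ± 0.589, 7.54 ± 0.256 and 7.38 ± 0.344 CPM and was not called in any comparison, although it was at 6 h without untreated replicate 2 (-0.24, adjusted p = 0.0347). The Pfkp share of phosphofructokinase RNA per kilobase was 72.2 ± 1.86%, 80.2 ± 0.852% and 78.3 ± 0.833%, and the Pfkl share 24.9 ± 1.84%, 17.4 ± 0.864% and 19.0 ± 0.675%.

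**Figure D2:**
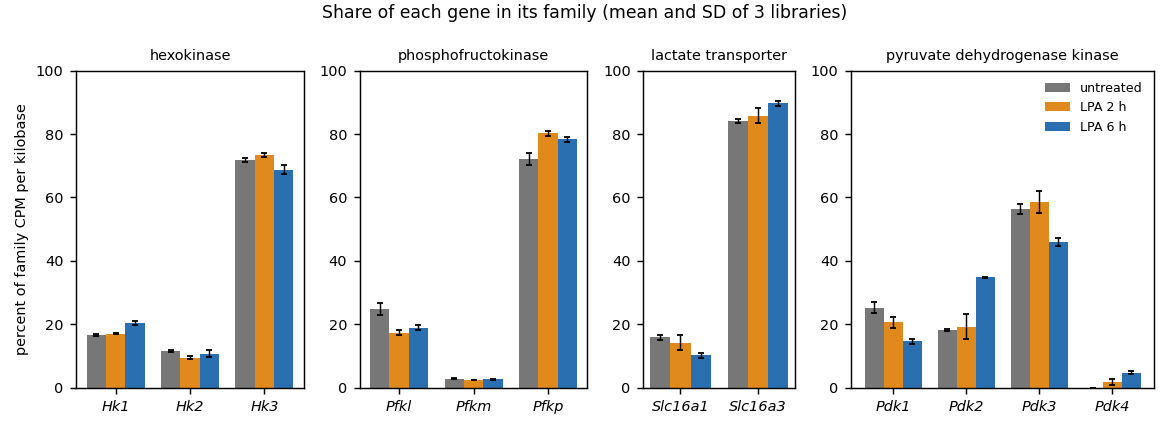
Share of each isoform in its family's RNA, as percent of the family's CPM per kilobase, for hexokinases, phosphofructokinases, lactate transporters and pyruvate dehydrogenase kinases in untreated cells and after 2 h and 6 h of LPA (bars: mean, error bars: SD, n = 3). Pfkp goes from 72.2% to 80.2% at 2 h, and Pdk2 from 18.2% to 34.8% at 6 h.

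Pfkfb3 and Pfkfb4 make and remove fructose 2,6-bisphosphate, the activator of phosphofructokinase. Pfkfb3 stood at 136 ± 6.59 and 140 ± 5.54 CPM in untreated and 2 h cells and rose to 165 ± 9.26 at 6 h (0.28 ± 0.054, edgeR adjusted p = 8.57e-04). Pfkfb4 read 56.5 ± 1.05, 49.9 ± 4.62 and 64.1 ± 1.41 CPM, lower at 2 h and higher at 6 h. Both Pfkfb4 calls were weak: at 2 h it was lost in 5 of the 6 fits that left out 1 library (adjusted p up to 0.0861, without untreated replicate 2), and at 6 h without untreated replicate 3 (0.0793), 6 h replicate 1 (0.0609) or 6 h replicate 2 (0.0795). The rise from 2 h to 6 h was called in every alternative run (0.36 ± 0.06, adjusted p = 4.79e-04 with all libraries).

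Gpi1, the isomerase after hexokinase, went from 669 ± 17.7 CPM to 521 ± 8.28 at 6 h (-0.36 ± 0.05, edgeR adjusted p = 8.26e-05). Aldoa, the main aldolase with 97.8 ± 0.123% of the Aldoa and Aldoc RNA per kilobase, went from 1489 ± 59.4 to 1277 ± 50.9 CPM (-0.22 ± 0.056, adjusted p = 0.0052). At 2 h neither was called (-0.077 and 0.0038). Aldoc was not called at 6 h (-0.15 ± 0.065, adjusted p = 0.0675), although its groups did not overlap. Pairing libraries by a replicate block gave -0.15 at 6 h with an adjusted p of 0.0323, and a fit of only the 6 libraries compared gave -0.16 (0.00471). Tpi1, triose phosphate isomerase, stood at 200 ± 16.4, 202 ± 22.6 and 191 ± 6.43 CPM and was not called.

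In lower glycolysis, 1 of 6 genes fell at 2 h (Eno2) and 3 fell at 6 h (Pgk1, Pgam1 and Pkm). Pkm, pyruvate kinase and the most abundant member by CPM, read 2184, 2260 and 2139 CPM untreated, 2313, 2098 and 2198 at 2 h, and 1784, 1832 and 1817 at 6 h. The 6 h libraries lay below all others (-0.28 ± 0.048, edgeR adjusted p = 3.96e-04). Pgk1, the first ATP-making enzyme of the pathway, read 730, 716 and 703 CPM untreated, 804, 720 and 772 at 2 h, and 608, 614 and 599 at 6 h. Its 6 h libraries were again the lowest (-0.24 ± 0.047, adjusted p = 0.00104). Pgam1, phosphoglycerate mutase, fell at 6 h from 700 ± 33.7 to 556 ± 15.8 CPM (-0.33 ± 0.056, adjusted p = 3.42e-04).

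Gapdh, the enzyme often used as a loading control, was not called: it stood at 1005 ± 73.1, 1038 ± 71.9 and 915 ± 89.0 CPM, with a 6 h difference of -0.13 (95% interval -0.29 to 0.019). Its value is uncertain because 77 other genes, 75 of them pseudogenes, share at least 95% identity with it over 200 bases, and their rows held 120% as many counts as its own. Gm13394 alone held 46.8% as many. With those rows added the sum was 2222 ± 97.0, 2325 ± 149 and 2003 ± 90.2 CPM, and the 6 h difference was -0.15 ± 0.057 (edgeR adjusted p = 0.0441). For Pgam1, whose copy Pgam1-ps2 held 20.3% as many counts, the summed 6 h difference was -0.22 ± 0.044 (adjusted p = 0.0013).

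Eno1, the main enolase, stood at 913 ± 40.4, 1010 ± 72.9 and 964 ± 29.8 CPM and was not called at 2 h (0.15 ± 0.057, edgeR adjusted p = 0.062). It passed at 2 h without 2 h replicate 3 (0.19, adjusted p = 0.0228). Eno2, the neuronal enolase isoform, read 12.1, 11.4 and 10.8 CPM untreated, 7.25, 8.76 and 5.50 at 2 h, and 15.1, 11.6 and 11.1 at 6 h. All 2 h libraries were below the others, and the 6 h libraries overlapped the untreated ones. The difference was -0.66 ± 0.16 at 2 h (adjusted p = 0.00956) and 0.12 ± 0.16 at 6 h.

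**Figure D3:**
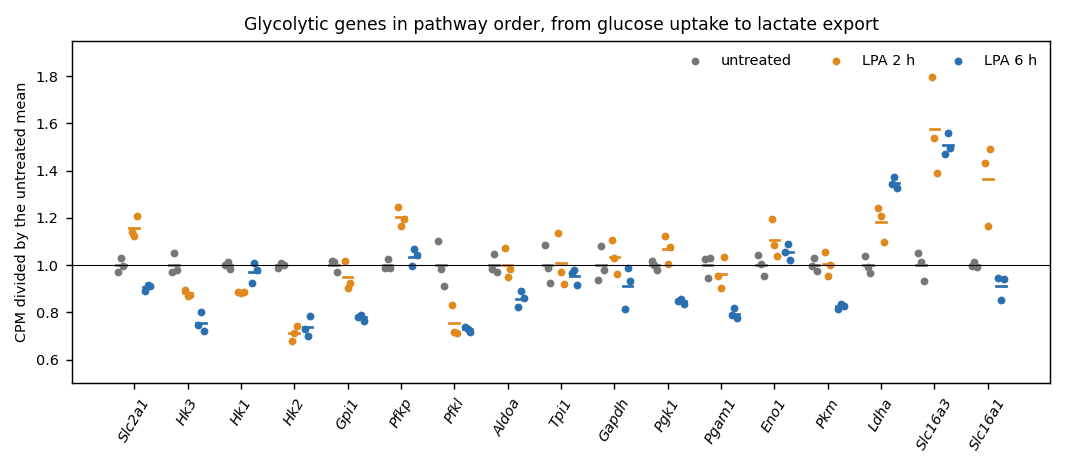
Level of 17 glycolytic genes in pathway order, as CPM in each library divided by the untreated mean (points: libraries, lines: group means). At 6 h Gpi1, Aldoa, Pgk1, Pgam1 and Pkm lie below the untreated libraries, while Ldha lies above them.

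Of the 4 pyruvate and lactate genes, 3 rose at 2 h (Ldha, Slc16a1 and Slc16a3), and at 6 h 2 rose (Ldha and Slc16a3) and 1 fell (Pdk1). Ldha, which turns pyruvate into lactate, read 499, 476 and 465 CPM untreated, 596, 579 and 527 at 2 h, and 644, 660 and 636 at 6 h. The groups stood in this order without overlap, at 0.24 ± 0.052 (edgeR adjusted p = 0.00293) and 0.43 ± 0.052 (adjusted p = 2.59e-05). It was the only member called higher in both comparisons with untreated cells and again from 2 h to 6 h (0.19 ± 0.052, adjusted p = 0.00969).

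Slc16a3, the lactate exporter MCT4, read 118, 114 and 105 CPM untreated, 202, 173 and 156 at 2 h, and 165, 175 and 168 at 6 h. All 6 treated libraries were above the untreated ones, 1.58-fold at 2 h (edgeR adjusted p = 8.65e-05) and 1.51-fold at 6 h (adjusted p = 1.12e-04). Slc16a1, the transporter MCT1, read 21.6, 22.0 and 21.5 CPM untreated, 31.1, 25.3 and 32.4 at 2 h, and 20.5, 18.5 and 20.4 at 6 h. It was high at 2 h and slightly under the untreated libraries at 6 h, with 0.44 ± 0.083 (adjusted p = 0.00118) and then -0.14 ± 0.085 (adjusted p = 0.203). Its 6 h value was called lower in a fit of only the 6 libraries compared (-0.14, adjusted p = 0.0431). Per kilobase, Slc16a3 made up 84.1 ± 0.738% of the RNA of these transporters in untreated cells and 89.7 ± 0.804% at 6 h.

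Pdk1, a kinase that shuts pyruvate dehydrogenase, read 34.5, 27.3 and 29.6 CPM untreated, 29.8, 20.7 and 26.3 at 2 h, and 16.4, 14.3 and 14.9 at 6 h. Every 6 h library lay below every other library, 0.497 of the untreated level (log2 fold change -1.01 ± 0.14, edgeR adjusted p = 1.83e-04). At 2 h the groups overlapped and it was not called (-0.25 ± 0.13, adjusted p = 0.161), but without 2 h replicate 1 it was (-0.38, adjusted p = 0.0394). The other kinases of this family are not members.

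Pdk2 rose at 6 h from 9.45 ± 0.512 to 15.7 ± 0.548 CPM (edgeR adjusted p = 1.47e-04), and Pdk3 fell from 27.6 ± 1.1 to 19.4 ± 0.106 CPM (adjusted p = 1.73e-04). Pdk4 counts were 2, 1 and 2 without LPA, then 74, 174 and 34 (2 h) and 113, 179 and 185 (6 h) (adjusted p = 2.16e-05 and 1.85e-06). Per kilobase, the Pdk1 share of the family went from 25.3 ± 1.63% to 14.6 ± 0.671% at 6 h, the Pdk2 share from 18.2 ± 0.215% to 34.8 ± 0.269%, and Pdk4 reached 4.69 ± 0.49%.

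**Figure D4:**
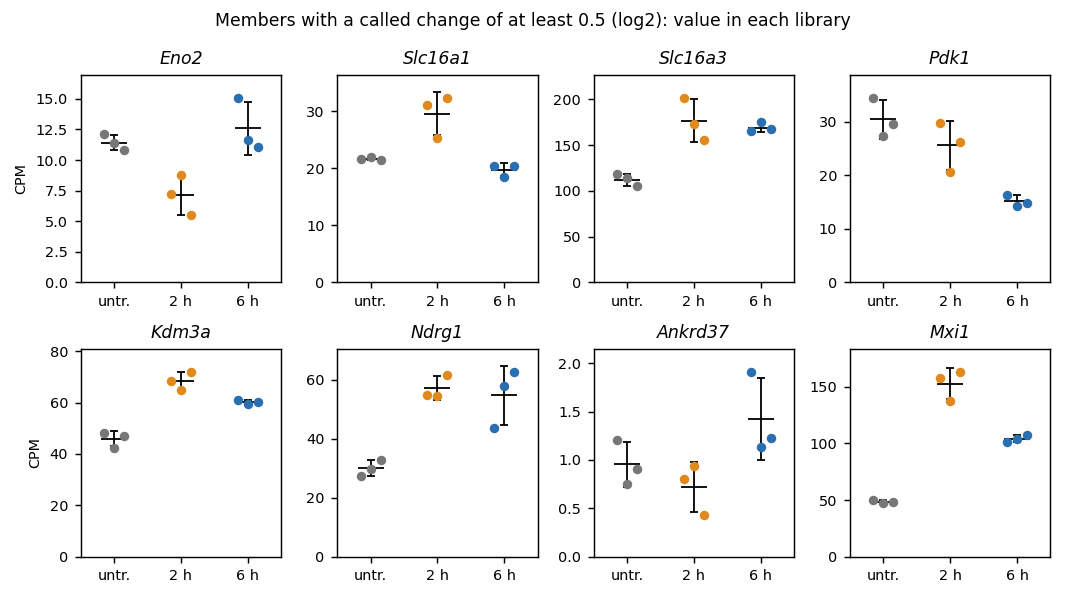
CPM in each library (points) with mean and SD (n = 3) for the 8 members called with a log2 fold change of at least 0.5 in size in any comparison. Mxi1 peaks at 2 h (137 to 163 CPM), Ndrg1 and Slc16a3 stay high at both times, and Pdk1 is lowest at 6 h (14.3 to 16.4 CPM).

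Among the oxygen-sensing genes, Hif1a, the regulated subunit of the factor, read 318, 293 and 284 CPM untreated, 401, 355 and 375 at 2 h, and 346, 319 and 317 at 6 h. The 2 h libraries were above all others (0.34 ± 0.059, edgeR adjusted p = 7.19e-04), and the 6 h libraries overlapped the untreated ones (0.13 ± 0.059, adjusted p = 0.0787). Under the replicate block, Hif1a at 6 h was called at 0.13 (adjusted p = 0.0114), as it was with only the 6 libraries compared (0.13, adjusted p = 0.0448), without untreated replicate 1 (0.18, adjusted p = 0.0384) and with scaling by total counts alone (0.17, adjusted p = 0.0241). This RNA level says nothing of the protein, which is controlled by degradation.

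Egln1, the main hydroxylase that marks HIF1α, stood at 37.1 ± 1.99, 34.2 ± 0.794 and 40.6 ± 0.868 CPM. Its 6 h rise of 0.13 ± 0.051 (edgeR adjusted p = 0.0433) was lost in 5 of 6 fits leaving out 1 library, all except the one without untreated replicate 1 (adjusted p up to 0.183, without untreated replicate 2), and with DESeq2 (0.0589). Egln3, itself a known HIF target, stood at 5.40 ± 0.553, 6.45 ± 0.731 and 6.32 ± 0.719 CPM and was not called. With the replicate block it was called at 6 h (0.23, adjusted p = 0.0297) and at 2 h (0.25, adjusted p = 0.0205).

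The mitophagy receptors Bnip3 and Bnip3l mark mitochondria for removal. Bnip3l went from 262 ± 15.1 to 332 ± 3.84 CPM at 6 h (0.34 ± 0.05, edgeR adjusted p = 1.12e-04), and every 6 h library (328 to 335 CPM) lay above the others. Bnip3 read 27.6, 19.5 and 21.1 CPM untreated, 29.6, 25.1 and 24.0 at 2 h, and 28.0, 25.5 and 26.8 at 6 h. Untreated replicate 1 was as high as the treated libraries, and Bnip3 was not called at either time. Without that library its differences were 0.37 (adjusted p = 0.00887) and 0.40 (adjusted p = 0.00432), and with the block the 6 h value was 0.25 (adjusted p = 0.01).

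Of the 4 oxygen-dependent enzymes, Kdm3a, a histone H3 lysine demethylase, read 48.0, 42.5 and 47.0 CPM untreated, 68.2, 65.0 and 71.9 at 2 h, and 60.8, 59.5 and 60.3 at 6 h. No treated library overlapped the untreated ones (0.58 ± 0.055, edgeR adjusted p = 6.45e-06, and 0.39 ± 0.055, adjusted p = 8.00e-05). P4ha1 and P4ha2 are catalytic subunits of collagen prolyl 4-hydroxylase and differed in direction. P4ha1 fell at 6 h from 110 ± 3.62 to 92.9 ± 2.34 CPM (-0.24 ± 0.047, adjusted p = 9.60e-04), and was not called at 2 h (-0.13, adjusted p = 0.0527). That 2 h value passed with all 3 other scalings (adjusted p = 0.0268 to 0.0468) and without 2 h replicate 3 (0.0479).

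P4ha2 stood at 2.86 ± 0.2, 3.79 ± 0.0738 and 3.89 ± 0.847 CPM and was called higher at both times (edgeR adjusted p = 0.037 and 0.0155), although 6 h replicate 1 (2.92 CPM) lay among the untreated libraries. The 2 h call was lost in each of the 6 fits that left out 1 library (up to 0.115, without untreated replicate 1). The 6 h call was lost without untreated replicate 1 (0.0563), 6 h replicate 2 (0.0631) or 6 h replicate 3 (0.0902). Ero1l, the oxidase that forms disulfides in the endoplasmic reticulum, stood at 102 ± 9.1, 105 ± 3.36 and 97.3 ± 3.84 CPM and was not called.

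The largest rise among the 35 was that of Mxi1 (chromosome 19, 53310518 to 53375810, GRCm38), a repressor that competes with Myc for its partner Max. It read 50.2, 47.0 and 48.6 CPM untreated, 158, 137 and 163 at 2 h, and 101, 104 and 107 at 6 h. The 3 groups were fully apart, with 2 h the highest: 3.14-fold at 2 h (log2 1.65 ± 0.063, edgeR adjusted p = 7.26e-09) and 2.14-fold at 6 h (1.10 ± 0.063, adjusted p = 1.03e-07). Ndrg1, a stress-induced gene long used as a marker of hypoxia, read 27.3, 29.9 and 32.7 CPM untreated, 54.9, 54.6 and 61.8 at 2 h, and 43.6, 58.0 and 62.7 at 6 h. All treated libraries were higher, 1.9-fold (adjusted p = 4.21e-04) and 1.83-fold (adjusted p = 3.86e-04).

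Ankrd37, a small ankyrin-repeat HIF target, was the lowest member, at 1.21, 0.756 and 0.904 CPM untreated, 0.80, 0.933 and 0.435 at 2 h, and 1.91, 1.13 and 1.23 at 6 h. It overlapped untreated cells at both times and was not called against them. It was higher at 6 h than at 2 h (0.89 ± 0.29, edgeR adjusted p = 0.0223), a call lost without 2 h replicate 3 (adjusted p = 0.0653) or 6 h replicate 1 (0.0896).

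Between 2 h and 6 h, 8 members rose and 13 fell, beside 24.3% and 24.4% of all rows and 48.7% called in either direction. The 2 h and 6 h libraries did not overlap for 23 members, as for 58.9% of all rows, and 3 members were called with at least a 1.5-fold change, as were 12.6% of all rows. Those that fell include Slc2a1, Pfkp, Slc16a1 and Hif1a, each of which had risen at 2 h. Mxi1 fell by 0.55 on the log2 scale (edgeR adjusted p = 4.33e-05) and stayed above untreated cells. Gpi1, Aldoa, Pgk1, Pgam1, Pkm and Pdk1 were not called at 2 h and were lower at 6 h than in either other group.

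The rest of the pathways was read from 6 lists that hold none of the members. Of all rows, 19.3% rose and 19.2% fell at 2 h, and 26.4% rose and 25.7% fell at 6 h. Among 15 other glycolysis genes, 2 rose and 2 fell at 2 h (13.3% each), and 1 rose and 8 fell at 6 h (6.67% and 53.3%, median -0.18). Tigar, which lowers fructose 2,6-bisphosphate, fell by 0.54 on the log2 scale at 2 h (SE 0.053), and the transporter Slc2a8 rose by 0.34 (SE 0.10). At 6 h the transporter Slc2a6 changed by -1.26 ± 0.089 and the glucokinase Adpgk by -0.75 ± 0.073. In the oxygen-sensing system (19 genes), 7 rose and 4 fell at 2 h (36.8% and 21.1%), and 5 rose and 3 fell at 6 h (26.3% and 15.8%). The ARNT relative Arntl rose (0.67 ± 0.056 and 0.59 ± 0.057), Cited4 fell at 2 h (-1.17 ± 0.15) and Arnt2 fell at 6 h (-1.38 ± 0.11).

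Of 49 other hypoxia-inducible genes, 18 rose and 7 fell at 2 h, and 25 rose and 11 fell at 6 h (36.7% and 51% higher, beside 19.3% and 26.4% of all rows). Hilpda, an inhibitor of triglyceride breakdown, went from 9.43 ± 0.878 to 317 ± 24.6 and 357 ± 9.3 CPM (edgeR adjusted p = 1.41e-12 and 1.02e-12). Vegfa, the vascular growth factor, went from 25.8 ± 2.66 to 245 ± 24.4 and 170 ± 24.5 CPM (adjusted p = 2.17e-07 and 3.77e-07). Hmox1, the haem-degrading enzyme, fell at 6 h (-1.09 ± 0.066). Both Hilpda and Vegfa changed by more than any of the 35 members. Both were set to be named whatever their values, and the members and lists were chosen with earlier results of these data known. These contrasts with the members and with all rows are descriptions only, and no test compared the lists.

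Glucose is also used through the pentose phosphate branch and stored as glycogen. Of 12 pentose phosphate genes, 3 fell and 0 rose at 2 h (25% and 0%, beside 19.2% and 19.3% of all rows). At 6 h 8 fell and 2 rose (66.7% and 16.7%, beside 25.7% and 26.4% of all rows, median -0.29). G6pdx, the entry enzyme of that branch, changed by -0.82 ± 0.061 and the transketolase Tkt by -0.71 ± 0.053 at 6 h, while Rpia and Rpe had fallen at 2 h (-0.41 ± 0.052 and -0.26 ± 0.06). Of 19 glycogen genes, 5 fell and 0 rose at 2 h (26.3% and 0%, beside 19.2% and 19.3% of all rows). At 6 h 6 of them fell and 3 rose (31.6% and 15.8%, beside 25.7% and 26.4% of all rows). Phka2, a regulatory subunit of phosphorylase kinase, fell at 2 h (-0.32 ± 0.048), and the branching enzyme Gbe1 fell at 6 h (-1.64 ± 0.15). Among 22 pyruvate oxidation genes, 7 rose and 1 fell at 2 h (31.8% and 4.55%), and 10 rose and 6 fell at 6 h (45.5% and 27.3%). Got1, the cytosolic aspartate transaminase, rose at 2 h (0.85 ± 0.056), and Pcx, pyruvate carboxylase, fell at 6 h (-1.60 ± 0.10).

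**Figure D5:**
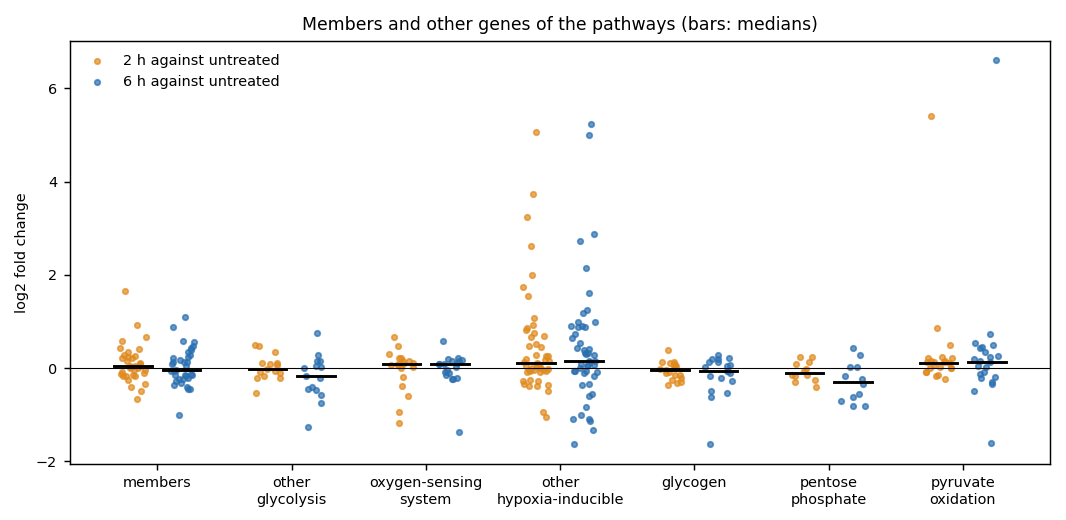
Log2 fold change of every tested gene (points) among the members and the 6 other lists at 2 h and 6 h, with the median as a bar. Hilpda (5.06 and 5.24) stands above the rest of its list, the medians of the pentose phosphate list are -0.10 and -0.29, and Pdk4, the top point of the pyruvate oxidation list, is a fitted value over 1 or 2 counts in each untreated library.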

How the data were processed

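The authors deposited 1 table of estimated counts for the 9 libraries, whole numbers not scaled for depth. The build mm10, RSEM 1.2.3 and DESeq2 are listed, with no role, per the submitters' processing notes. Which aligner and annotation release made the counts is not given in the sources used here. Libraries were non-stranded, per the labels' protocols, so reads of a gene and its antisense partner cannot be told apart. Rows named by Ensembl transcripts were matched to GENCODE M21 (GRCm38, the assembly mm10 names): of 38887 rows, 37776 matched 1 gene and held 98.46% of counts. Each member was its row with most counts. The 14363 rows kept by filterByExpr (minimum count 10) were TMM-scaled and fitted together with edgeR 4.0.16 (glmQLFit, robust; glmQLFTest; R 4.3.3), with a mean per group. Calls used a Benjamini-Hochberg adjusted p under 0.05 over all 14363 rows. CPM values are counts scaled to the TMM-adjusted library size. Each standard error is the absolute log2 fold change over the root of edgeR's F statistic, and 95% intervals span 1.96 standard errors each way.

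Libraries with the same replicate number departed together from their group means in untreated and 6 h cells (correlations 0.178, 0.144 and 0.151 over rows). The labels state no pairing, so any pairing by number rests on the data alone. The main fit did not pair libraries in any comparison, and the replicate block was run only as an alternative. Chi-square per degree of freedom between replicates was 7.23 to 33.3, and no library repeated another. The count fit was tested on simulated data. Near-identical copies of members were searched with blastn 2.17.0 among GENCODE transcripts (at least 95% identity over 200 bases). Levels between genes were set per kilobase of the longest coding transcript.

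The members and the gene lists were chosen with earlier results of these data known. The 35 members were all named. Values in each library are given for members called in any comparison with a log2 fold change of at least 0.5, and for others where a result turns on them. From each of 6 pathway lists the 2 called genes with the smallest p per comparison with untreated were named, and always Vegfa and Hilpda; 1 gene that this rule names is not reported here. Alternatives tried were 3 other scalings, DESeq2 1.42.0 and limma-voom (limma 3.58.1) as tools, no filter or a mean count of at least 10, a replicate block, a fit of only the 6 libraries compared, rows of a gene summed, each library left out, and, chosen after seeing the data, near-identical copies summed.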

Additional observations from a re-analysis of the deposited data

Results flagged for a closer look

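For 21 members the change from untreated differed between 2 h and 6 h of LPA, by edgeR's test of 6 h against 2 h. That is 60% of the members, beside 48.7% of all rows called in the same comparison. Both effects share the untreated libraries, and the values here are log2 fold changes of 6 h over 2 h. In glucose entry these were Slc2a1 (-0.35), Hk1 (0.13) and Hk3 (-0.22). In upper glycolysis they were Gpi1 (-0.28), Pfkp (-0.21), Pfkfb3 (0.24), Pfkfb4 (0.36) and Aldoa (-0.23). In lower glycolysis they were Pgk1 (-0.33), Pgam1 (-0.28), Eno2 (0.78) and Pkm (-0.28). Among pyruvate and lactate genes they were Ldha (0.19), Slc16a1 (-0.58) and Pdk1 (-0.76). The remaining ones were Hif1a (-0.20), Egln1 (0.25), Bnip3l (0.23), Kdm3a (-0.18), Ankrd37 (0.89) and Mxi1 (-0.55).

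Some of these calls were lost without 1 library (edgeR, Benjamini-Hochberg adjusted). That of Hk1 was lost without 2 h replicate 1 (adjusted p = 0.0586), 6 h replicate 2 (0.111) or 6 h replicate 3 (0.0788). That of Hif1a was lost without 2 h replicate 1 (0.0619), 6 h replicate 2 (0.0525) or 6 h replicate 3 (0.0583). Kdm3a lost it without 6 h replicate 2 (0.0511), and Ankrd37 without 2 h replicate 3 (0.0653) or 6 h replicate 1 (0.0896). Other processing also mattered. The Kdm3a call was lost with scaling by total counts alone (0.0615). The Hk1 call was lost without the filter on low counts (0.0503) and in a fit of only the 6 libraries compared (0.0522). The cause was not tested.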

How the results depend on the processing

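Members called higher and lower numbered 10 and 6 at 2 h, 10 and 11 at 6 h, and 8 and 13 at 6 h against 2 h. No alternative run moved these counts by 1.5 times or reversed a called member. Leaving out 1 library gave 9 to 11 higher and 5 to 6 lower at 2 h, 7 to 11 and 10 to 11 at 6 h, and 7 to 8 and 12 to 15 between the times. With the replicate number as a block they were 13 and 8 at 2 h, 13 and 12 at 6 h, and 8 and 15 between the times. At 6 h the block changed the calls of Aldoc, Hif1a, Egln3 and Bnip3 and no other member; at 2 h it added calls for Eno1, Pdk1, Egln3, Bnip3 and P4ha1. For 2 h against untreated, same-numbered libraries correlated at 0.165, 0.0904 and 0.184, each best with its own number, as a hint from the data. For 6 h against 2 h the values were 0.128, 0.0347 and 0.106. There 6 h replicates 1 and 3 were closest to their own number, and 6 h replicate 2 was closer to 2 h replicate 3 (0.0729). Correlations this weak cannot decide whether the libraries were paired. DESeq2 called 11 and 7, 9 and 11, and 8 and 14. Of the called members, 13 of 16 at 2 h, 17 of 21 at 6 h and 17 of 21 between the times were called under every alternative run. Calls gained without 1 library and not given above were Pgk1 (0.14, without 2 h replicate 2), Egln1 (-0.16, without untreated replicate 2) and Bnip3l (0.16, without untreated replicate 1) at 2 h. Between the times they were Aldoc (-0.18) and P4ha1 (-0.16) without 2 h replicate 2, and Gapdh without 2 h replicate 3 (-0.23) or 6 h replicate 2 (-0.24). Gapdh was also called lower between the times with near-identical copies summed (-0.22, edgeR adjusted p = 0.00806) and with DESeq2 (-0.18, DESeq2 adjusted p = 0.0482). The cause was not tested. Scaling by total counts moved the median of all rows to 0.047 at 6 h. The smallest library, with 29628817 counts, limits members near 1 CPM such as Ankrd37.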
